A study of Mus musculus with 6 samples.

Results

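The receptors through which cells sense glutamate, GABA and glycine were examined in cells sorted from the myenteric plexus of the mouse colon, a net of neurons and glia lying within the muscle coat. Members were all probe sets of the array whose only gene symbol belongs to the AMPA, kainate, NMDA or metabotropic glutamate receptors, the GABA-A receptors or the glycine receptors. This gave 82 probe sets for 41 genes of 18193 genes tested, and of several probe sets for a gene, the one with the highest mean over the 6 libraries was used. The cells came from mice of the strain Mapttm1(EGFP)Klt/J, which carry EGFP at the locus of the microtubule protein tau, and were divided by fluorescence into 3 libraries labelled EGFP-positive (colonic neurons in the labels) and 3 labelled EGFP-negative (myenteric cells). All mice had been injected in the celiac ganglion with fluorescent cholera toxin subunit B as a tracer of neurons projecting to it, and were killed after 3 to 4 days. Each library pooled cells of 2, 4 or 6 mice, and neither age nor the number of EGFP alleles is stated in the labels. Biotinylated cRNA from about 50 ng of RNA was hybridised to 1-colour Affymetrix arrays.

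Glutamate opens AMPA, kainate and NMDA receptors, which are cation channels built from several subunits, and also acts more slowly through metabotropic receptors coupled to G proteins. GABA-A and glycine receptors are chloride channels assembled from a pool of related subunits, and the subunits chosen set how the receptor responds. In the gut wall, a minority of enteric neurons are known to use glutamate or GABA as a transmitter, and receptors for both have been described on enteric neurons.

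Values below are deposited log2 values in the order of replicates 1, 2 and 3, and the level of one probe set is not set against that of another. Control probe sets for TrpnX, a bacterial transcript not present in mouse RNA, read 1.00 to 1.48 and mark the background. Mapt, the gene of tau, read 1.43, 1.32 and 5.55 in EGFP-positive and 1.44, 1.64 and 1.38 in EGFP-negative libraries, by label. This is 1 of the 4 Mapt probe sets. It was above background by more than 1 log2 unit only in EGFP-positive replicate 3. In 2 of the 3 libraries labelled EGFP-positive this probe set went against the label. Mapt alone cannot decide the labels, because EGFP lies at its locus and the number of EGFP alleles is not stated. Directions are given by label. The 12 neuron markers averaged 3.13, 3.15 and 6.49 against 3.21, 3.54 and 3.81 and were likewise highest in EGFP-positive replicate 3. The number of probe sets above a log2 value of 6 ran from 6182, in EGFP-negative replicate 1, to 7621.

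Most receptor genes stayed close to background in every library. Of the 41 genes, 28 read below 2 in all 6 libraries, with values from 0.94 to 1.96, and 12 of them never exceeded the highest TrpnX value. Another 8 had their highest value between 2 and 4. The 5 genes that reached a log2 value of 4 in any library were the AMPA subunit genes Gria2, Gria3 and Gria4, the kainate subunit gene Grik3 and the GABA-A subunit gene Gabra3. In EGFP-negative replicate 1, 0 of the 41 reached 4, whereas 39.9% of all genes did, and with median centring 3 of them reached it there. In EGFP-positive replicate 3, 4 of them did, against 44.9% of all genes.

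**Figure D1:**
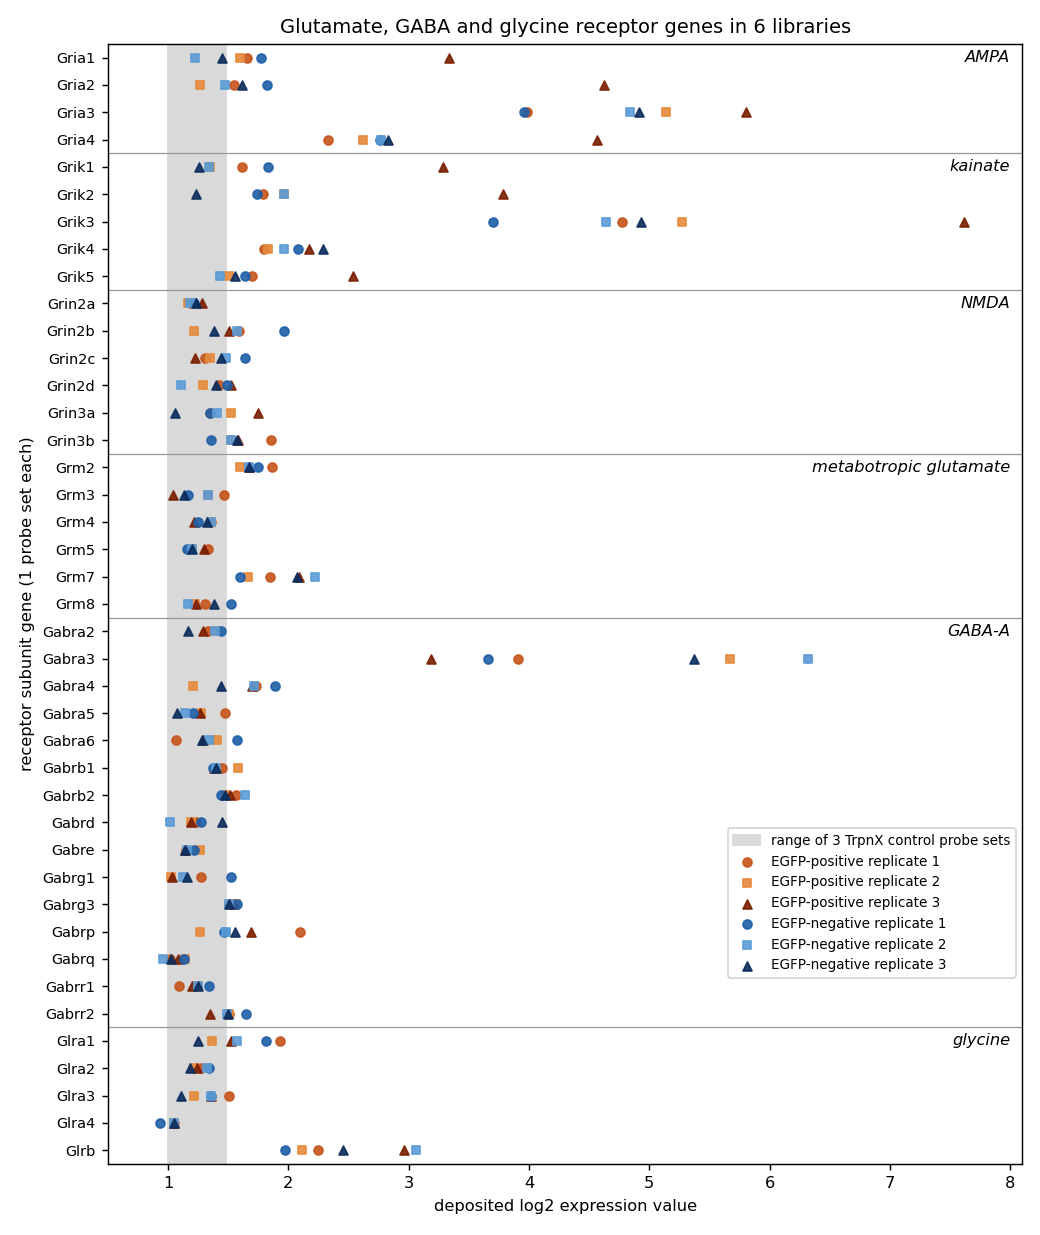
Deposited log2 values (horizontal axis) of the 41 receptor genes (vertical axis, 1 probe set each, grouped by receptor family) in the 3 EGFP-positive and 3 EGFP-negative libraries, with the range of the TrpnX control probe sets from 1.00 to 1.48 shaded. The points of 28 genes lie below 2 in all libraries, and in Gria1, Gria2, Gria4, Grik1, Grik2 and Grik3 the dark red triangle, EGFP-positive replicate 3, lies apart to the right of the other points.

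The AMPA receptor genes, whose products carry most fast excitatory transmission in the brain, all had their highest value in EGFP-positive replicate 3. That library held the highest value of 19.6% of all genes and of 11 of the 41 receptor genes. EGFP-negative replicate 1 also held that of 11 (18.7% of all genes), and EGFP-positive replicate 1 that of 10 (15.0%). Gria2, the subunit that makes AMPA channels poorly permeable to calcium (NCBI gene 14800), read 1.55, 1.26 and 4.62 in EGFP-positive libraries and 1.82, 1.48 and 1.62 in EGFP-negative libraries. In this probe set only 1 library was clearly above background, and the groups overlapped. The log2 difference, EGFP-positive minus EGFP-negative throughout, was 0.84 (SE 0.92), and -0.23 when EGFP-positive replicate 3 was left out. The other 2 Gria2 probe sets differed from it in size and from each other in sign. One read 1.77, 1.41 and 2.95 against 1.77, 1.55 and 1.14, a difference of 0.56, and the other read 1.61, 1.77 and 2.25 against 2.18, 2.06 and 1.79, a difference of -0.13. With the mean of all Gria2 probe sets the difference was 0.42.

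Gria1, a subunit known for its role in synaptic plasticity, was named after its values were seen. It read 1.66, 1.60 and 3.33 against 1.77, 1.22 and 1.45, so again 5 of the libraries lay near background. Its difference was 0.71 (SE 0.51), and 0.15 without EGFP-positive replicate 3. Gria4, another pore-forming subunit (NCBI gene 14802), read 2.33, 2.62 and 4.57 against 2.76, 2.77 and 2.83. EGFP-positive replicates 1 and 2 lay below all 3 EGFP-negative libraries, and the difference of 0.39 (SE 0.60) became -0.31 without replicate 3. Its other 2 probe sets stayed between 1.05 and 1.41.

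Gria3 was the AMPA gene whose probe set read 3.96 or more in all 6 libraries. The gene (NCBI gene 53623) read 3.98, 5.13 and 5.80 in EGFP-positive libraries and 3.96, 4.84 and 4.92 in EGFP-negative libraries. The 2 groups overlapped, both replicates numbered 1 were lowest in their group, and the value was higher in the EGFP-positive library of all 3 same-numbered pairs, by 0.02, 0.30 and 0.89. The difference was 0.40 (SE 0.53), and without EGFP-positive replicate 3 it was -0.02. A second Gria3 probe set read 4.25, 5.32 and 5.58 against 3.47, 4.55 and 4.26, a difference of 0.96. It was the 1 probe set of the 41 not used for a gene's value that reached 4.

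The start of Gria2 is shown because it was the 1 receptor gene window with a match to RE1, the element bound by REST, a repressor of neuronal genes outside neurons. RefSeq gave a promoter window of 250 bases before to 50 after the start for 31 of the 41 genes, 38 windows in all. The RE1 consensus, searched on both strands, was found in 21 of 32851 windows (0.0639%) and in 1 of the 38, that of Gria2. The capitals mark the match, which lies on the opposite strand from base -170 to base -154 and reads TTTAGCACCGCGGACAG there. The window is chr3:80802786-80803085 of GRCm38.p6, minus strand, and a match is a description of letters, not of binding.
Gria2: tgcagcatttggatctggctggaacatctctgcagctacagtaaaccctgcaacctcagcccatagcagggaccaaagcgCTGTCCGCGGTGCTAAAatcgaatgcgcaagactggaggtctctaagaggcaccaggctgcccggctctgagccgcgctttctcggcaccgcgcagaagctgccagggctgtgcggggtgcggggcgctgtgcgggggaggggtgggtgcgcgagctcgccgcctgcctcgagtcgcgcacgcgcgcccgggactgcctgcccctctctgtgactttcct

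Among the kainate receptor genes, Grik3 had the largest log2 difference of all 41 members. Its product is a subunit that forms glutamate-gated channels alone or with other kainate subunits. Grik3 (NCBI gene 14807) read 4.77, 5.27 and 7.61 in EGFP-positive libraries and 3.70, 4.64 and 4.93 in EGFP-negative libraries. EGFP-positive replicate 3 stood apart, EGFP-negative replicate 1 was lowest, and the groups overlapped because EGFP-negative replicate 3 exceeded EGFP-positive replicate 1. The difference was 1.46 (SE 0.81), with means of 5.88 ± 1.52 (SD, n = 3) and 4.43 ± 0.64 (SD, n = 3), and 0.577% of all genes had a difference at least as high.

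Grik3 was higher in the EGFP-positive library of all 3 same-numbered pairs, by 1.07, 0.63 and 2.68. It did not pass in limma (unadjusted p = 0.126, Benjamini-Hochberg adjusted p = 1.00). With the replicate block the limma p was 0.0361 before and 0.661 after Benjamini-Hochberg adjustment, which did not pass either. Without EGFP-positive replicate 3 the difference was 0.59. The second Grik3 probe set stayed between 1.30 and 1.88 and gave -0.17, so the pattern rests on 1 probe set.

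Grik1 and Grik2, subunits related to Grik3, were named after their values were seen. Grik1 read 1.62, 1.35 and 3.29 against 1.83, 1.34 and 1.26. Grik2 read 1.79, 1.96 and 3.78 against 1.74, 1.96 and 1.24. In both genes EGFP-positive replicate 3 was above 3 and the other 5 libraries were below 2, and the differences of 0.61 (SE 0.54) and 0.86 (SE 0.58) were 0.01 and 0.23 without that library. Grik4 and Grik5, which need a partner subunit to form a channel, ranged from 1.80 to 2.29 and from 1.43 to 2.53. In Grik5 the highest value was again that of EGFP-positive replicate 3, and in Grik4 it was that of EGFP-negative replicate 3.

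**Figure D2:**
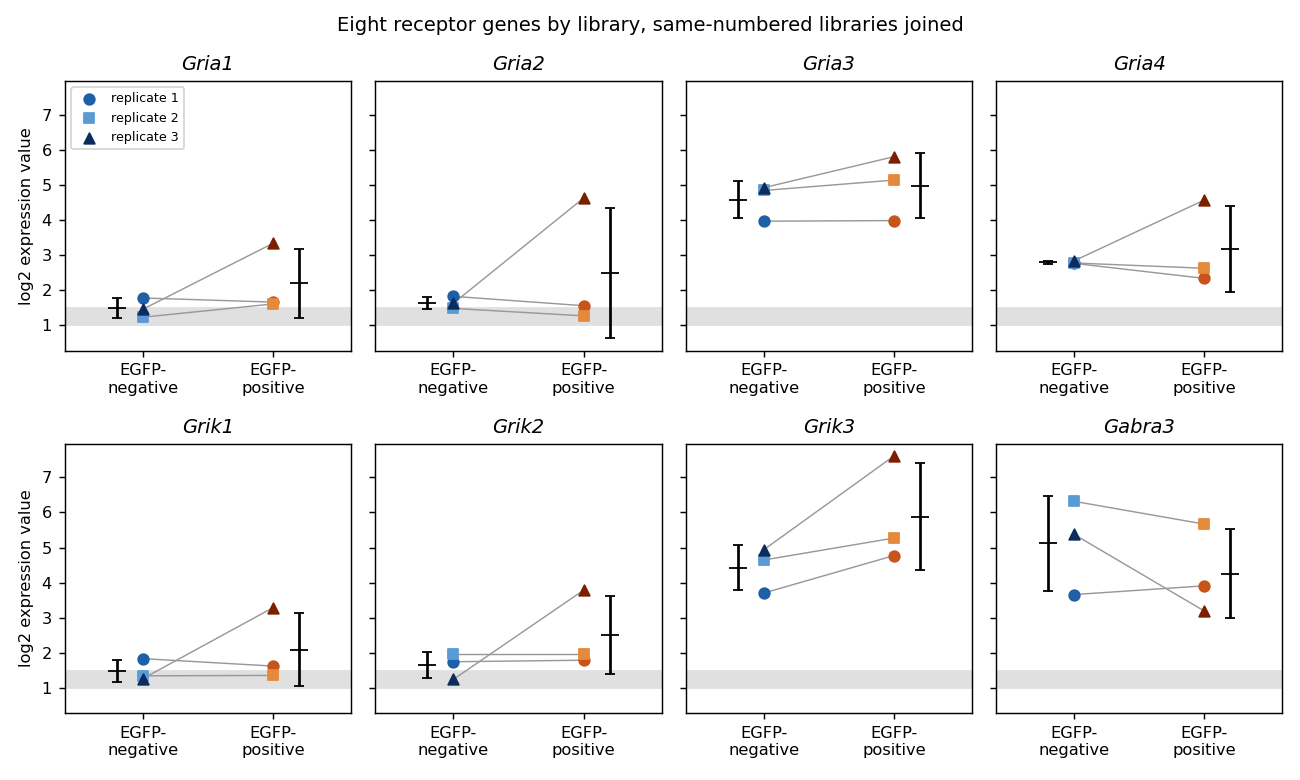
Log2 values (vertical axis) of 8 receptor genes in the EGFP-negative and EGFP-positive libraries, with same-numbered libraries joined by a line, the mean and SD of each group beside the points and the TrpnX range shaded. In Gria2 and Gria4 only the line of replicate 3 slopes up, in Grik3 all 3 lines do, and in Gabra3 2 lines slope down.

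The NMDA receptor genes read close to background throughout. All 6 analysed, 4 encoding glutamate-binding GluN2 subunits and 2 encoding the GluN3 subunits Grin3a and Grin3b, stayed between 1.06 and 1.96. Their log2 differences ran from -0.23 to 0.27, a range in which no difference can be read at this level. Metabotropic glutamate receptor genes were similarly dim. Of 6 genes, 5 stayed between 1.04 and 1.86 and the sixth, Grm7, a presynaptic receptor that lowers cyclic AMP, ranged from 1.60 to 2.22. Grm5, which signals through phospholipase C, did not exceed 1.33.

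GABA-A receptor genes were represented by Gabra3 and otherwise by probe sets near background. Gabra3 encodes an alpha subunit, part of the site where benzodiazepines bind (NCBI gene 14396). Its values were 3.91, 5.67 and 3.19 in EGFP-positive libraries and 3.66, 6.32 and 5.37 in EGFP-negative libraries. The 3 lower libraries were EGFP-positive replicates 1 and 3 and EGFP-negative replicate 1, so the groups overlapped. The difference was -0.86 (SE 0.91; limma unadjusted p = 0.384, Benjamini-Hochberg adjusted p = 1.00), and leaving out each library in turn gave -1.59 to -0.26. In same-numbered pairs it was 0.25, -0.65 and -2.19. Replicates 2 were high in both groups, and EGFP-positive replicate 3, the highest library for the AMPA genes, was the lowest for Gabra3. The second Gabra3 probe set stayed between 0.99 and 1.52.

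Of the other 14 GABA-A genes, 13 stayed between 0.96 and 1.89. These included further alpha subunits, both beta subunits analysed, Gabrg1 and Gabrg3 of the gamma type, and the rho subunits Gabrr1 and Gabrr2, which are best known from the retina. Gabrp, the pi subunit, ranged from 1.27 to 2.10. No analysed beta or gamma subunit gene exceeded 1.64. A dim probe set need not mean a silent gene, since the second Gabra3 probe set also stayed between 0.99 and 1.52.

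The promoter windows of Grik3 and Gabra3 are shown because these 2 genes had the largest differences of opposite sign and their base compositions lie far apart. The Grik3 window, chr4:125490446-125490745 on the plus strand of GRCm38.p6, is 82.0% G or C with 50 CG dinucleotides, against a median of 7 over all windows. The more upstream of the 2 Gabra3 windows in RefSeq, chrX:72656870-72657169 on the minus strand, is 43.0% G or C and holds 0 CG dinucleotides, as do 5.43% of all windows. Neither holds a match to RE1, and no capitals are set.
Grik3: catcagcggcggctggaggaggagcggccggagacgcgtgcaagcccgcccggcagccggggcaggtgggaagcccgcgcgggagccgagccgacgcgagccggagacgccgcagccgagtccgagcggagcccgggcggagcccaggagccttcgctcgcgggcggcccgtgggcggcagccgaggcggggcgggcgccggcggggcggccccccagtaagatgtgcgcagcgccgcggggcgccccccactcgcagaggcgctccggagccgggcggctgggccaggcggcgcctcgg
Gabra3: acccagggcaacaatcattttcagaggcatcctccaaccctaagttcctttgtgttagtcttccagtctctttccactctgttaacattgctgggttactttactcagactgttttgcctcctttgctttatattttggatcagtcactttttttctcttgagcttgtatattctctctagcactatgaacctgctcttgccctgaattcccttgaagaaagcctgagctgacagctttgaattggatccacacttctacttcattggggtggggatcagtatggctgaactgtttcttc

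Glycine receptor genes were dim except Glrb, the beta subunit that anchors the receptor to the scaffold protein gephyrin. Glrb read 2.25, 2.11 and 2.96 against 1.98, 3.06 and 2.46. The groups overlapped, with a difference of -0.06 (SE 0.36). The second Glrb probe set peaked at 3.16 and differed in the other direction, by 0.16. The 4 alpha subunit genes, which carry the binding site for glycine, stayed between 0.94 and 1.93.

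Across the families, none of the 41 genes passed the comparison of the 2 labels. In limma over all 18193 genes, 0 members were higher and 0 lower at a Benjamini-Hochberg adjusted p of 0.05, and 0% of all genes were called in either direction, where the smallest adjusted p was 0.34. At an unadjusted p under 0.05 the limma counts were 0 higher and 0 lower among the members, against 1.48% and 3.43% of all genes. With the replicate block 1 member, Grik3, was higher at that level and 0 were lower, against 2.85% and 4.54% of all genes. The median log2 difference of the 41 was 0.01, against -0.02 for all genes, and 24 of the 41 differences were above 0, against 8443 of 18193.

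Values of the 2 groups did not overlap in 1 gene that was higher and 1 that was lower, against 3.07% and 6.04% of all genes. The members' counts are near this background. Both genes were named after their values were seen and lay near the TrpnX range. Gabra5, an alpha subunit gene, read 1.47, 1.28 and 1.27 against 1.20, 1.14 and 1.08. Grin2c, an NMDA subunit gene, read 1.31, 1.35 and 1.22 against 1.64, 1.48 and 1.44. Equal values in at least 2 libraries, within 1e-06, occurred in 31.7% of the members and 21.5% of all genes.

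**Figure D3:**
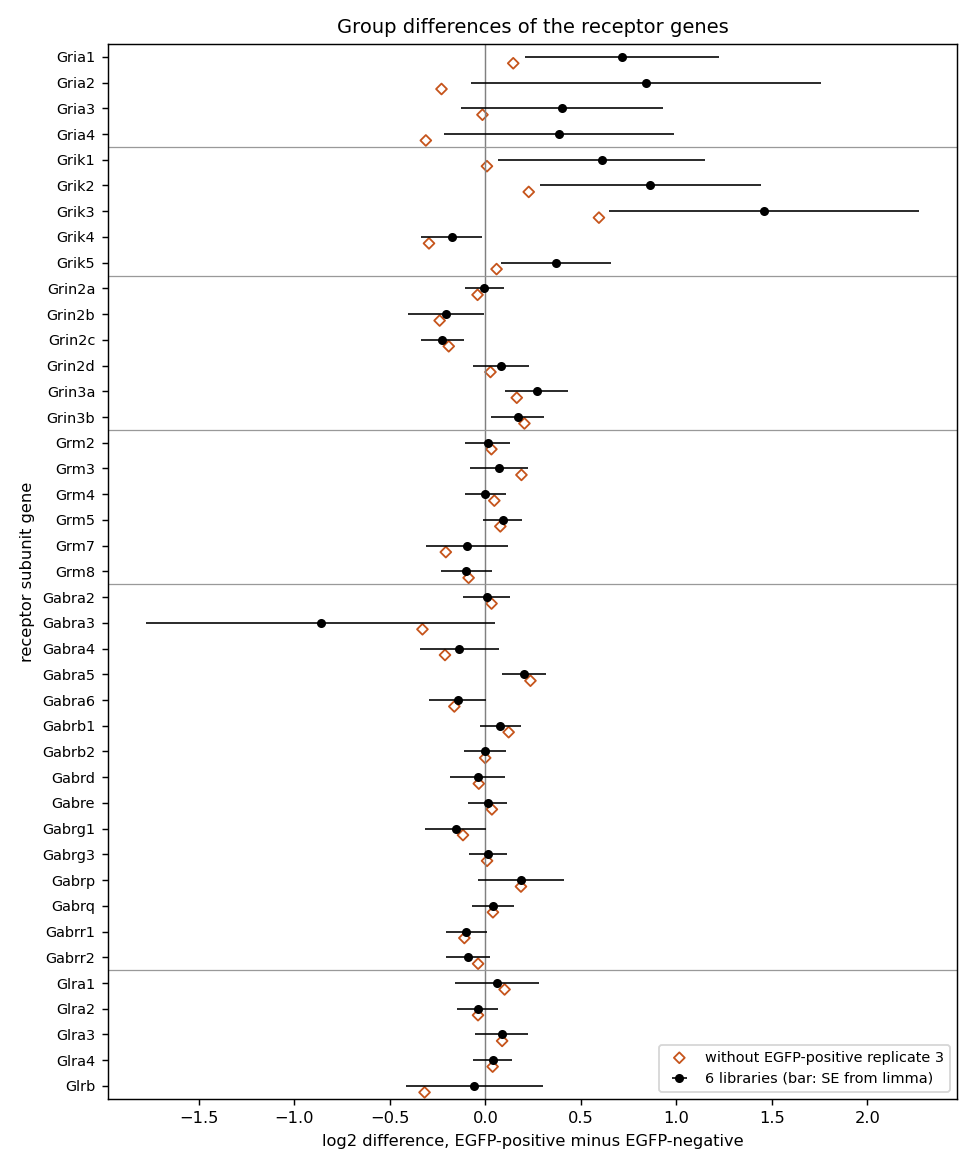
Log2 difference, EGFP-positive minus EGFP-negative (horizontal axis), of the 41 receptor genes (vertical axis), with the SE from limma as bars and open diamonds for the difference without EGFP-positive replicate 3. The diamonds of Gria1, Gria2, Gria4, Grik1, Grik2 and Grik3 lie to the left of their points, at -0.23 for Gria2 against 0.84, and most genes of the lower families lie near 0.

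Means of some marker lists, for cells that a sort of the myenteric plexus can hold, ran partly alongside Grik3 or Gabra3. In such bulk samples, fewer cells of a type and less RNA per cell cannot be told apart. Beside Grik3, the 12 neuron markers ranged from 3.13 to 6.49 in the EGFP-positive libraries and from 3.21 to 3.81 in the EGFP-negative ones. The 7 of 10 enteric glia markers analysed averaged 6.92, 6.42 and 8.59 against 4.59, 5.92 and 5.57. The glial mean was higher in every EGFP-positive library than in any EGFP-negative one. Groups did not overlap in 5 of the 7, all higher in EGFP-positive, against 3.07% of all genes, and they overlapped in Gfap and Gfra3. Grik3 was lowest where the glial list was lowest, in EGFP-negative replicate 1, and highest where both lists were highest, and the part of either cell type in its values was not tested. None of the markers in these lists stayed below 2 in all libraries.

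Beside Gabra3, the 4 of 5 markers of interstitial cells of Cajal analysed, pacemaker cells of the gut, averaged 6.31, 6.90 and 5.40 against 5.42, 7.51 and 7.42. The 5 of 6 markers of fibroblast-like cells analysed averaged 10.30, 10.87 and 9.99 against 10.29, 11.13 and 11.13. The 6 endothelium markers averaged 5.32, 6.51 and 4.27 against 5.79, 6.13 and 6.03. In the means of these 3 lists, as in Gabra3, the 3 lower libraries were EGFP-positive replicates 1 and 3 and EGFP-negative replicate 1. Many single markers had another set of lower libraries, so this holds for the means and not for each marker. These were Ano1 and Kit (Cajal cells), Col1a1 and Dcn (fibroblast-like cells) and, of the endothelium list, all but Tie1. Ano1, for example, was highest in EGFP-positive replicate 1. It read 9.78, 9.76 and 8.52 against 9.49, 9.62 and 8.99. The means of smooth muscle, mesothelium and intestinal epithelium markers had a different set of 3 lower libraries. The part of any of these cell types in the Gabra3 values was not tested. Macrophage markers averaged 6.70, 3.48 and 2.14 against 8.23, 8.48 and 6.84, and lymphocyte markers 2.26, 1.24 and 1.19 against 3.18, 5.25 and 5.59. Both means were lower in every library labelled EGFP-positive than in any labelled EGFP-negative. Lower values without overlap occurred in 5 of the 10 macrophage and 5 of the 7 analysed lymphocyte markers, against 6.04% of all genes.

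**Figure D4:**
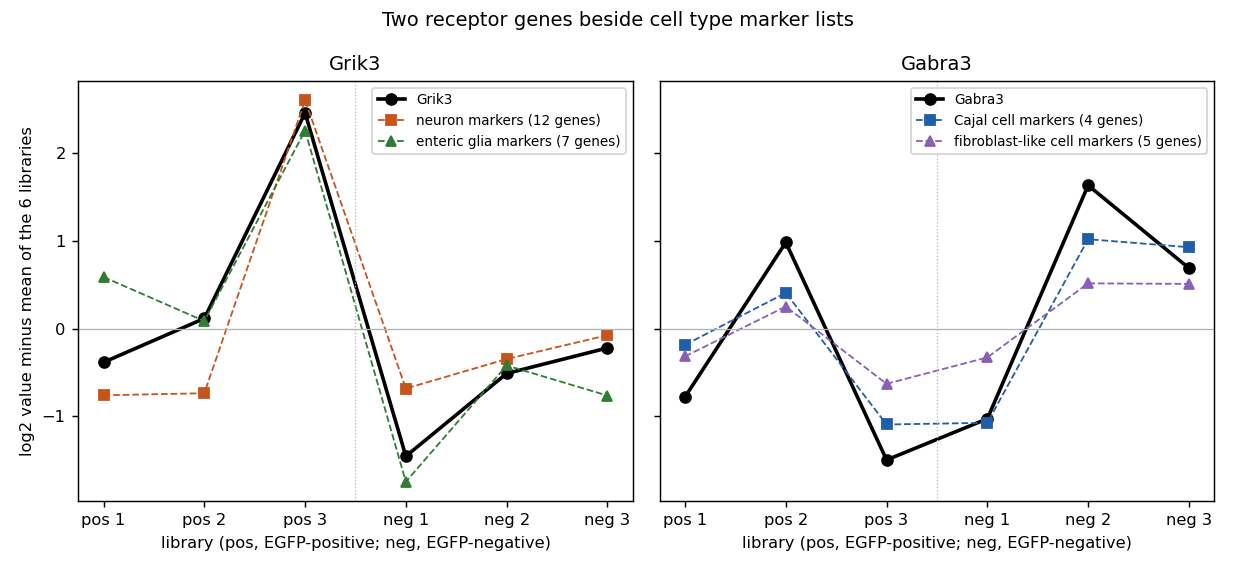
Log2 value minus the mean of the 6 libraries (vertical axis) in each library (horizontal axis), for Grik3 with the means of neuron and enteric glia markers on the left and for Gabra3 with those of Cajal cell and fibroblast-like cell markers on the right. All 3 lines on the left peak in EGFP-positive replicate 3, and on the right all 3 lines are high in EGFP-positive replicate 2 and EGFP-negative replicates 2 and 3.

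Genes that make, move and anchor these transmitters and receptors formed a list of 88 pathway partners, of which 77 were analysed. Over all genes tested, 0 partners passed in limma at a Benjamini-Hochberg adjusted p of 0.05 in either direction, and at an unadjusted p under 0.05 the limma counts were 0 higher and 1 lower, against 1.48% and 3.43% of all genes. The 1 was Homer2, a scaffold of metabotropic glutamate receptors named after its values were seen, at 1.84, 1.79 and 1.83 against 2.18, 2.17 and 2.20. With the replicate block the limma counts at that level were 1 higher and 2 lower, against 2.85% and 4.54% of all genes. Their median log2 difference was 0.07, against -0.02 for all genes. EGFP-positive replicate 3 held the highest value of 28 of the 77 partners (36.4%), against 19.6% of all genes.

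Of the vesicular transporters, Slc17a6, which loads glutamate into synaptic vesicles, had the pattern of Gria2. Its values were 1.56, 1.28 and 4.55 in EGFP-positive libraries and 1.64, 1.68 and 1.47 in EGFP-negative libraries, near background in 5 libraries. Its difference of 0.87 (SE 0.89) became -0.18 without EGFP-positive replicate 3. The enzymes that make GABA, Gad1 and Gad2, stayed between 1.25 and 1.84 and were named after their values were seen. Slc32a1, the vesicular transporter of GABA and glycine named in the same way, read 2.86, 2.59 and 2.62 against 3.41, 3.03 and 2.76.

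Among auxiliary proteins, Nsg2, a neuronal endosomal protein that associates with AMPA receptors, had the largest difference of the partners. It read 6.96, 6.69 and 9.54 against 5.87, 6.59 and 6.76. EGFP-positive replicate 3 was far above the rest, and the groups overlapped because EGFP-negative replicate 3 exceeded EGFP-positive replicate 2. The difference was 1.33 (SE 0.81), and it was above 0 in all 3 same-numbered pairs, at 1.10, 0.10 and 2.78. Without EGFP-positive replicate 3 it was 0.42. Nlgn3, a postsynaptic adhesion molecule, read 2.50, 2.11 and 4.41 against 2.49, 2.33 and 1.66, a difference of 0.85 (SE 0.64) that was 0.15 without the same library.

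Among enzymes, Got1, which interconverts glutamate and aspartate, read 4.85, 5.36 and 5.04 against 3.87, 4.47 and 5.68. Its difference was 0.41 (SE 0.48), with 0.98, 0.90 and -0.64 in same-numbered pairs, and leaving out each library in turn gave 0.01 to 0.91. Slc6a6, a taurine transporter of the plasma membrane, read 8.44, 8.17 and 7.84 against 8.35, 8.39 and 8.12. The means were 8.15 ± 0.30 (SD, n = 3) and 8.29 ± 0.15 (SD, n = 3), and the difference was -0.14 (SE 0.19). Neither passed (limma, Benjamini-Hochberg adjusted p = 1.00 for each). Of related receptors that the rule leaves out, Gabbr1, a subunit of the metabotropic GABA-B receptor, read 2.47, 4.75 and 6.59 against 3.39, 4.71 and 5.13. Replicate 1 was lowest and replicate 3 highest in each group, and the difference of 0.19 (SE 1.11) was small beside that spread. Grid1, of the delta glutamate receptors, stayed close to background, at 1.25, 1.34 and 1.75 against 1.20, 1.05 and 1.14. Groups did not overlap in 1 partner that was higher, Grid1, and 2 that were lower, Cnih3 and Homer2. Over all genes the shares were 3.07% and 6.04%.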

How the data were processed

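Gene expression was measured on 6 arrays. The authors deposited log2 values for every probe set, computed with RMA per the submitters' processing notes. RMA settings and software are not given in the sources used here, the log2 scale was inferred from their range, and no normalisation was added. Column medians ran from 1.91 to 1.99, and upper quartiles were 4.08 in EGFP-negative replicate 1 and 4.61 to 4.86 in the other libraries. Quantile normalisation, a usual step of RMA, would make the columns' quartiles equal, so how these values were made is uncertain. The number of arrays limits the precision.

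Of 45101 probe sets, those with 1 gene symbol in the platform annotation and no control name were kept, and each of 18193 genes was represented by its probe set with the highest mean. Of the 41 receptor genes, 25 had several probe sets, and in 14 these differed in sign. All 41 symbols are in the RefSeq gene table, from which promoter sequences (GRCm38.p6) came.

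Tests used limma (version 3.58.1, R 4.3.3), with lmFit and default eBayes on every gene, two-sided, and p-values adjusted by Benjamini-Hochberg at a threshold of 0.05. The method was tested on simulated data with independent libraries, for the size and sign of the fitted differences. Which differences these libraries could detect is not shown by that test. Tables and figures used Python 3.11.15 with pandas 2.3.3 and matplotlib 3.10.9. The p-values measure the spread between these libraries. Replicate numbers 1 to 3 recur in each group's labels, and deviations from the group means over all genes correlated within same-numbered pairs (r = 0.36, 0.32 and 0.42), so a fit with the number as a block was run beside the one without.

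The members and lists were chosen with earlier results of these data known. Named with all values were members reaching a log2 value of 4, and, of each role of the partners, the gene with the largest absolute difference among those reaching 4, with Grid1 and Gabbr1. No per-sample columns were left out. Alternatives covered scaling, variance settings, array weights, the choice of probe sets, a filter on level and leaving out each library.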

Additional observations from a re-analysis of the deposited data

How the results depend on the processing

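Counts of members past the adjusted threshold were 0 in each direction under all alternatives run. The replicate block, median centring and trend and robust variances each gave 1 member higher at an unadjusted limma p under 0.05, and the last also gave 1 lower. Groups that did not overlap were 2 higher with quantile normalisation, 0 lower with median centring, and 0 in each direction among genes above the median level, where the 3 remaining members had a median difference of 0.40. Leaving out 1 library gave 2 to 5 members higher and 1 to 4 lower without overlap, against 6.34% to 7.37% and 9.14% to 15.1% of all genes, and 0 in each direction at an unadjusted p under 0.05. Partners at that p were 1 higher and 2 lower with the replicate block, and 0 lower with median centring or above the median level and 3 lower with array weights. Leaving out 1 library gave 0 to 2 higher and 1 to 3 lower.

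Leaving out 1 library moved the difference of Gria2 between -0.23 and 1.45, of Gria3 between -0.015 and 0.90, of Gria4 between -0.31 and 0.81, of Slc17a6 between -0.18 and 1.46, of Slc6a6 between -0.28 and 0.019 and of Gabbr1 between -0.80 and 1.26. The sign turned in all 6 without EGFP-positive replicate 3, and for Gabbr1 also without EGFP-negative replicate 1, at -0.32. Grik3 ranged from 0.59 to 2.01. These fits had no replicate block, and each kept the same-numbered library of the other group. In same-numbered pairs, Gria3 differed by 0.02, 0.30 and 0.89, and Slc6a6 by 0.09, -0.23 and -0.28. At a level of log2 5, members numbered 0, 3 and 2 in the EGFP-positive and 0, 1 and 1 in the EGFP-negative libraries, and at log2 6 they numbered 0, 0 and 1 and 0, 1 and 0. With median centring, 3 members reached log2 4 in EGFP-positive replicate 1 and 3 in EGFP-negative replicate 1. The cause of these changes was not tested, and dim probe sets carry no order below background. The replicate block changed no call at the adjusted threshold.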
